A study of Mus musculus with 4 samples.

Results

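Hair cells of the inner ear turn movement into current with a small set of proteins at the tips of their stereocilia, and the expression of 9 genes encoding them was examined here. They were chosen by symbol and all 9 were found among the 23996 gene rows of the deposited table. They are Tmc1, Tmc2, Tmie, Lhfpl5 and Cib2, which encode the transduction channel complex, Pcdh15 and Cdh23, which encode both ends of the tip link, and Ush1c and Ush1g, which encode scaffolds at its upper anchor. The study set hair cells made by forced Atoh1 expression ("new") against hair cells that had formed in normal development ("original"), to describe the transcriptome of the induced cells. Each group had 2 RNA sequencing libraries, and the table gave 1 FPKM value (fragments per kilobase of transcript, scaled to all mapped fragments) per gene and group.

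All animals were C57BL/6 mice carrying Sox2-CreER+, Atoh1-HA+, Atoh1-eGFP+ and tdTomato+. Sox2-CreER is a tamoxifen-activated Cre recombinase expressed where Sox2 is, which in the postnatal cochlea includes supporting cells. Cre switches on the HA-tagged Atoh1 transgene and the tdTomato reporter, and Atoh1-eGFP marks hair cells. Tamoxifen was given late on postnatal day 3 at 0.20 mg per g of body weight, with corn oil alone for controls. The cochlear epithelium was taken on postnatal day 7. Original hair cells were sorted as eGFP positive without tdTomato, and new hair cells as positive for both. The tamoxifen day and dose are recorded alike for the libraries of both groups. The labels do not say whether any of the original cells came from the corn oil controls, nor how many animals stood behind a library. A hair cell that still expressed Sox2 when Cre was active would carry both colours too.

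When the hair bundle is deflected, tip links between neighbouring stereocilia pull on the transduction channel. The cadherin encoded by Cdh23 forms the upper part of the link and the protocadherin encoded by Pcdh15 the lower part, where it meets the channel. TMC1 and TMC2 form the pore. LHFPL5 and TMIE are membrane proteins of the complex, and CIB2 is a calcium-binding partner of the TMC proteins. Harmonin, encoded by Ush1c, and SANS, encoded by Ush1g, hold the upper end to the actin core. In the mouse cochlea Tmc2 is expressed early and declines after birth while Tmc1 takes over, and loss of either tip link cadherin, harmonin or SANS causes Usher syndrome type 1 in humans.

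Promoter windows of 300 bases, 250 before and 50 after the RefSeq start, were read for the members, since the groups compared differ in forced expression of Atoh1, a DNA-binding factor. Of the 9 members, 7 were matched to a RefSeq (GRCm38.p6) window used here. Each was searched on both strands for a pair of E-boxes of the type that Atoh1 binds and for the TATA element, and no motif overlaps another. The E-box CAGCTG, which reads the same on both strands, occurred in 3 of the 7 windows (Lhfpl5, Tmie and Pcdh15), against 16.3% of all 32851 mouse windows. The E-box CAGATG occurred in none of the 7, against 17.2% of all windows. The TATA element, spelled TATAAA, was found in 1 of the 7 (Pcdh15), against 13.6%. The 3 windows with a match, and that of Tmc1 as one without, are shown in gene orientation with matches in capitals. They are at chr17:28575469-28575768 on the plus strand (Lhfpl5), chr9:110880024-110880323 on the minus strand (Tmie), chr10:73821617-73821916 on the plus strand (Pcdh15) and chr19:20954153-20954452 on the minus strand (Tmc1).
Lhfpl5: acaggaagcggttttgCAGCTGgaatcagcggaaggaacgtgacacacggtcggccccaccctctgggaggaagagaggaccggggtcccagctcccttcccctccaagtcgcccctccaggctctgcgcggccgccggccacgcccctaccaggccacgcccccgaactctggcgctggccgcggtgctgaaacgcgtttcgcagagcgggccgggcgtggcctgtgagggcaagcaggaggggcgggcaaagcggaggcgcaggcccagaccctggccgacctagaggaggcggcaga
Tmie: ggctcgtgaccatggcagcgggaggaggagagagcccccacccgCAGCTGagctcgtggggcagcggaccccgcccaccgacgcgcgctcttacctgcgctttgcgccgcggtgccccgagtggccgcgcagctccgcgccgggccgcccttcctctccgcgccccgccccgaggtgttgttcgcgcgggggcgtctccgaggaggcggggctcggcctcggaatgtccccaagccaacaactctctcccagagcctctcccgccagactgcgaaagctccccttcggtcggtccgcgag
Pcdh15: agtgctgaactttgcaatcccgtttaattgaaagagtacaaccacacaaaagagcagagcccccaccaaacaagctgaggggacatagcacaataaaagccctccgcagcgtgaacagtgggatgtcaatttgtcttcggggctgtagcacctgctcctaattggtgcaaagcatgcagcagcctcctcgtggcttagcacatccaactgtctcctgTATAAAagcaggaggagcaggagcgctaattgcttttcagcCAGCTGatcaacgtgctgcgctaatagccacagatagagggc
Tmc1: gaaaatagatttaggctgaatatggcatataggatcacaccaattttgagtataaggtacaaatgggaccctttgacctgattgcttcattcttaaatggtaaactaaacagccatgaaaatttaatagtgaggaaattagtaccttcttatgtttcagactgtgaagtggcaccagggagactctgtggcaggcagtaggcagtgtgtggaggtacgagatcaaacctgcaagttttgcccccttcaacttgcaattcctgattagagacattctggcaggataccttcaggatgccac

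The CAGCTG match began 234 bases before the start in Lhfpl5 and 206 bases before it in Tmie, while in Pcdh15 it began at base 9 after the start, and TATAAA began 33 bases before the start. The 3 matches stood in a gene with a lower value in new hair cells (Lhfpl5), one with a higher value (Tmie) and one at a low level in both groups (Pcdh15). The windows differed in base composition. Tmie, Cib2 and Lhfpl5 had 73.7%, 71.3% and 70.7% G and C, each above 91% of all windows, with 39, 20 and 28 CpG dinucleotides. Tmc1 had 42.0% and 1 CpG, and Cdh23 had 54.0% and 5 CpG, close to the median window of 52.7%. Both genes at over 1000 FPKM in original hair cells, Lhfpl5 and Cib2, thus had GC-rich windows, but so did Tmie at 1.57 FPKM.

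Several facts of the whole table bear on every value below. The original column held 2165833 FPKM in all and the new column 244225, so the sums were 8.87-fold apart (3.15 in log2). Genes with at least 1 FPKM in 1 group and above 0 in both, 9026 in number, are called tested genes, and differences are log2(FPKM + 1) of new minus original, which understates the change of low genes. A tested gene under 1 FPKM in 1 group passed only through the other, so the filter fixed its direction on the deposited scale. Folds are plain FPKM ratios. The median difference over tested genes was -0.21, and it became 0.06 under trimmed-mean scaling, 0.26 under quantile normalization and 2.53 when both columns were scaled to equal sums. With 1 value per group there is no replicate error and depth per library is unknown, so no difference below was set against the spread between libraries. Fewer cells of a type and less RNA per cell cannot be told apart in such bulk samples. Atoh1 itself stood at 791 FPKM in the original and 83.4 FPKM in the new cells, with endogenous and transgenic transcripts not separated. All 12 hair cell markers had an FPKM above 0 in both groups. All 12 were lower in new hair cells, where 54.7% of tested genes were. Pou4f3 was nearly level, at 16.7 and 16.1 FPKM, and 11 were at least 2-fold lower. Under each of the other scalings 11 were lower, where 48.9% (trimmed mean), 44.2% (quantile) and 22.3% (equal sums) of tested genes were.

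The members were split between lower and higher values in new hair cells. Of the 6 members among the tested genes, 4 were lower (Lhfpl5, Cdh23, Tmc1 and Cib2), where 54.7% of tested genes were lower, and 2 were higher (Ush1c and Tmie), where 45.3% were. Cdh23, at 0.347 FPKM in new hair cells, passed the filter only through the original group and so could only count as lower. With quantile normalization or with equal sums, 3 of the 6 members were lower and 3 higher, Cib2 having changed sides. Of all tested genes, 44.2% were lower with quantile normalization and 22.3% with equal sums. All 4 lower members differed by at least 2-fold, as did 34.9% of tested genes, and both higher members did, as did 19.9%. The median difference of the 6 was -2.83 against -0.21 over all tested genes, whose quartiles were -2.02 and 0.78. Without the filter the median over all 9 members was -0.11, against -0.04 over all genes above 0 in both groups. The other 3 members, Pcdh15, Ush1g and Tmc2, were under 1 FPKM in both groups. No member had a p under 0.05 in the authors' deposited table, where 9.38% of tested genes (847) did. No tested gene passed 0.05 after Benjamini-Hochberg adjustment, the smallest adjusted p being 0.526.

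**Figure D1:**
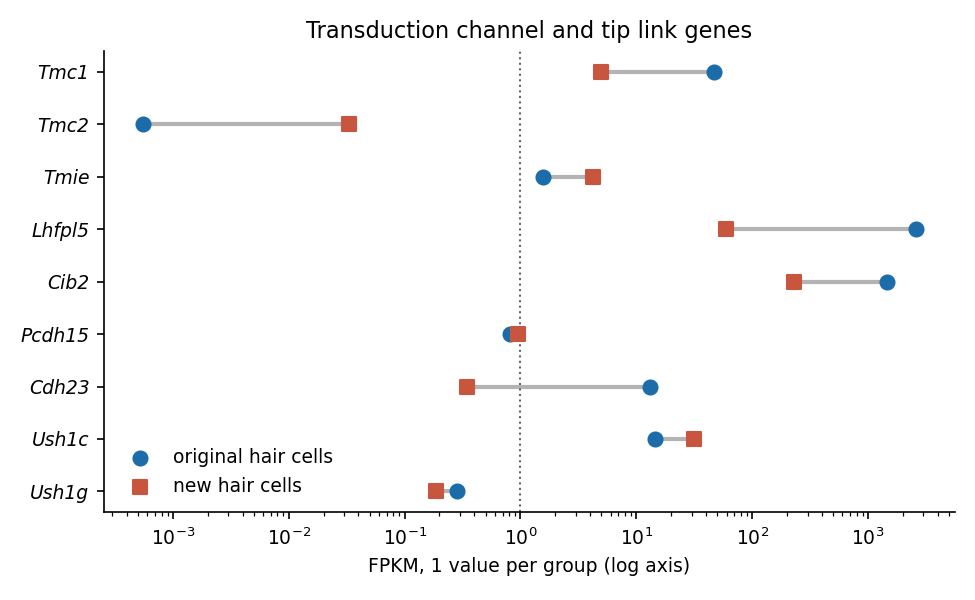
FPKM of each member in original (circles) and new hair cells (squares) on a log axis, 1 value per group, with the 1 FPKM filter dotted. Lhfpl5, Cib2, Tmc1 and Cdh23 lie to the right in original hair cells, Tmie and Ush1c in new hair cells, and Tmc2, Pcdh15 and Ush1g stay left of the filter in both.

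Lhfpl5, needed to bring the channel complex to the Pcdh15 protein at the stereocilia tips, had the largest difference of the members on the deposited scale. Lhfpl5 (mm10 chromosome 17, 28575719 to 28583593) had 2595 FPKM in the original and 59.5 FPKM in the new cells, 43.6-fold lower; the authors' deposited table gave p = 0.057 (adjusted p 0.53). Its difference was -5.42 (-2.58 with quantile normalization and -2.30 with equal sums), and 5.5% of tested genes had a lower one. Highly expressed genes as a whole were lower in new hair cells, so each member was also set beside the tested genes whose mean log2(FPKM + 1) over both groups lay within 0.5 of its own. For Lhfpl5 these were 135 genes with a median difference of -3.71, and 11.9% of them were lower than Lhfpl5.

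Cib2, which binds the TMC proteins and calcium and is needed for transduction, was the second most abundant member in original hair cells and the most abundant in new ones. Cib2 (mm10 chromosome 9, 54545352 to 54560079) had 1457 FPKM in the original and 231 FPKM in the new cells, 6.31-fold lower; the authors' deposited table gave p = 0.177 (adjusted p 0.661). Its difference of -2.65 turned to 0.64 with quantile normalization and to 0.49 with equal sums. Among 126 tested genes of like level the median was -3.54, and 77.8% of them were lower than Cib2. Thus Lhfpl5 lay below, and Cib2 above, the middle of genes of like level.

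Tmc1, the pore subunit of mature hair cells, was lower in new hair cells on the deposited scale, while the early pore subunit Tmc2 was near 0 in both groups. Tmc1 (mm10 chromosome 19, 20783458 to 20954202) had 47.1 FPKM in the original and 4.98 FPKM in the new cells, 9.46-fold lower; the authors' deposited table gave p = 0.182 (adjusted p 0.663). Its difference of -3.01 shrank to -0.09 with equal sums. Among 1083 tested genes of like level the median was -0.72, and 32.9% were lower than Tmc1. Tmc2 (mm10 chromosome 2, 130195194 to 130264445) was listed at 0.000549 FPKM in the original and 0.0333 FPKM in the new cells, too low for a fold; its p was 1 in the authors' deposited table. Tmc1 was thus the TMC pore gene above the filter in both groups.

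Tmie, a membrane protein that couples the channel complex to the lipid bilayer and is needed for current, went the other way from Lhfpl5, Cib2 and Tmc1. Tmie (mm10 chromosome 9, 110866046 to 110880083) had 1.57 FPKM in the original and 4.23 FPKM in the new cells, 2.70-fold higher; the authors' deposited table gave p = 0.363 (adjusted p 0.791). Its difference of 1.03, or 3.91 with equal sums, was above 0 under all scalings tried, and 80.8% of tested genes had a lower one. Among 2220 tested genes of like level the median was 0.25, and 73.8% were lower than Tmie.

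The tip link genes differed from each other. Cdh23, the upper cadherin (mm10 chromosome 10, 60302750 to 60696490), stood at 13.2 FPKM in the original and 0.347 FPKM in the new cells, 38.1-fold lower; the authors' deposited table gave p = 0.188 (adjusted p 0.665). Its difference was -3.40, or -5.25 as the log2 ratio in the authors' deposited table, since the pseudocount weighs on its low value in new hair cells. It was -1.80 with equal sums. Among 2007 tested genes of like level the median difference was 0.20, and 3.6% were lower than Cdh23, the lowest such share among the members. Pcdh15, the lower cadherin (mm10 chromosome 10, 73821867 to 74649732), stood at 0.808 FPKM in the original and 0.944 FPKM in the new cells, with p = 0.882 in the authors' deposited table. The cadherins therefore stood 16.4 to 1 (Cdh23 to Pcdh15) in original hair cells and 0.368 to 1 in new ones. Pcdh15 was under 1 FPKM in both groups and Cdh23 in new hair cells, so these ratios rest on low values.

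Both tip link genes are long, and over all tested genes the median difference varied with transcript length. The longest coding transcript in the GENCODE annotation of mm10 had 11096 bases for Cdh23 and 9104 bases for Pcdh15, against 1433 to 4073 bases for the other members. Over 389 tested genes with a transcript over 8000 bases the median difference was -0.84, and over 3390 genes of more than 2000 and up to 4000 bases it was -0.04. Genes of up to 1000 bases, 542 in number, were also low, at -0.89. The part of length in the Cdh23 value was not tested. Pcdh15, the next longest, was under 1 FPKM in both groups and so was not among the tested genes. The Cdh23 row shared its locus with 2 other rows, 4632428N05Rik and Gm17455, both under 0.05 FPKM in both groups.

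Of the scaffold genes, Ush1c was higher in new hair cells and Ush1g was low in both groups. Ush1c (mm10 chromosome 7, 46195351 to 46238490) had 14.5 FPKM in the original and 31.6 FPKM in the new cells, 2.18-fold higher; the authors' deposited table gave p = 0.53 (adjusted p 0.884). Its difference of 1.07 was 3.13 with quantile normalization and 4.18 with equal sums. Among 923 tested genes of like level the median was -1.26, and 83.5% were lower than Ush1c. Ush1g (mm10 chromosome 11, 115307163 to 115332303 as listed) stood at 0.282 FPKM in the original and 0.188 FPKM in the new cells, with p = 1 in the authors' deposited table. That locus is shared with Otop2, a gene on the opposite strand that spans Ush1g, at 1.41 FPKM in original and listed at 0 in new hair cells, and without strand information reads from overlapping parts cannot be told apart.

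**Figure D2:**
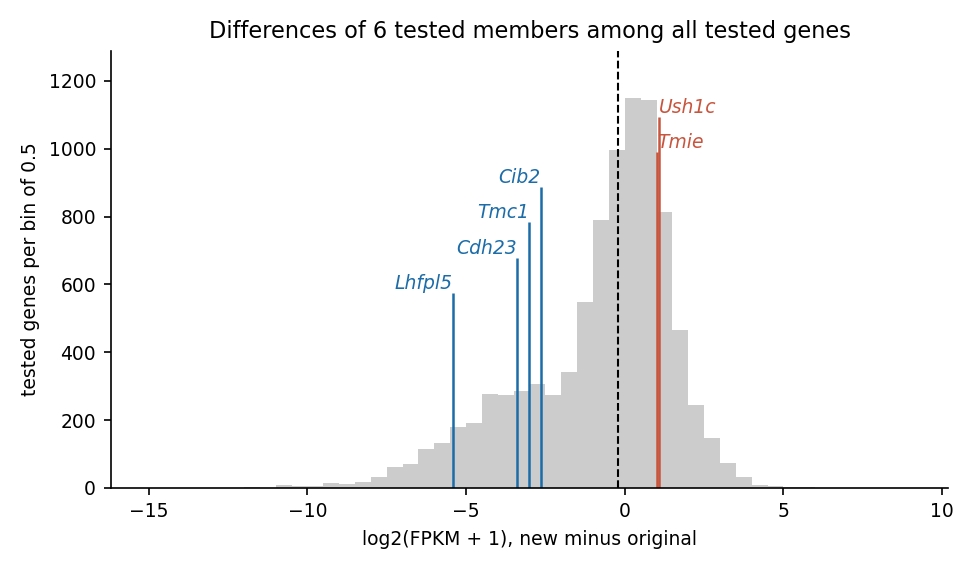
Histogram of log2(FPKM + 1) of new minus original over the 9026 tested genes in bins of 0.5, with the median of -0.21 dashed and the 6 tested members as labelled lines whose heights carry no value. Lhfpl5, Cdh23, Tmc1 and Cib2 lie in the long left shoulder, and Tmie and Ush1c lie just right of the peak.

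Position within a column does not depend on how the columns are scaled, so the order of the members was compared as well. In original hair cells the order by FPKM was Lhfpl5, Cib2, Tmc1, Ush1c, Cdh23, Tmie, Pcdh15, Ush1g and Tmc2. In new hair cells it was Cib2, Lhfpl5, Ush1c, Tmc1, Tmie, Pcdh15, Cdh23, Ush1g and Tmc2. Without replicate values it cannot be said which neighbours in these orders differ beyond their spread. Cib2 stayed near the top of all genes, at rank 337 in original and 221 in new hair cells, whereas Lhfpl5 went from rank 190 to 683. Cdh23 differed most in position among the members, from above 87.0% of all genes in original to above 57.3% in new hair cells. Tmc1 went from above 91.8% to above 84.1%. Ush1c went the other way, from 87.3% to 95.4%, and Tmie from 72.4% to 82.6%. Pcdh15 (65.5% and 66.9%) and Ush1g (54.1% and 52.7%) moved by less than 2 percentage points.

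**Figure D3:**
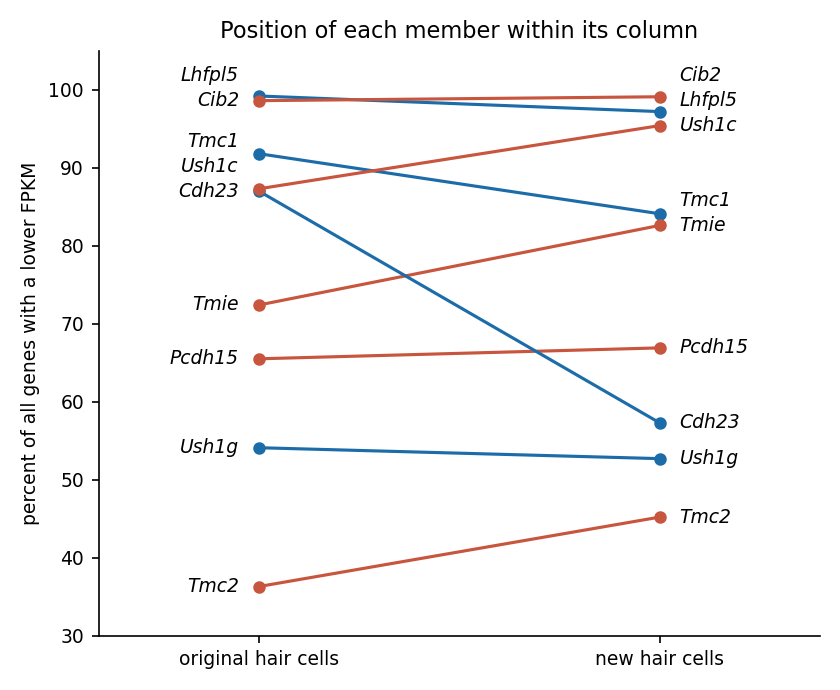
Percent of all 23996 genes with a lower FPKM than each member, in original (left) and new hair cells (right), with lines in red where the share was higher in new hair cells and blue where it was lower. The line of Cdh23 slopes down most steeply, those of Ush1c and Tmie slope up, and Lhfpl5 and Cib2 stay near the top in exchanged order.

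Ratios between members within a deposited column, which a single scaling factor for the column leaves unchanged but quantile normalization does not, showed how the makeup of the set differed between groups. Lhfpl5 stood 1.78 to 1 against Cib2 in original and 0.258 to 1 in new hair cells. Against the pore gene Tmc1, Lhfpl5 stood at 55.1 to 1 in original and 11.9 to 1 in new hair cells, and Cib2 at 30.9 to 1 and 46.4 to 1. Tmie stood 0.0333 to 1 against Tmc1 in original hair cells and 0.851 to 1 in new ones. Harmonin and the Cdh23 protein, which bind each other at the upper anchor, had transcripts near parity in original hair cells, with Ush1c to Cdh23 at 1.10 to 1, and at 90.9 to 1 in new hair cells. The latter ratio rests on a Cdh23 value of 0.347 FPKM, under the filter. Lhfpl5 and Cib2 together made up 98.1% of the summed FPKM of the 9 members in original and 87.3% in new hair cells.

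**Figure D4:**
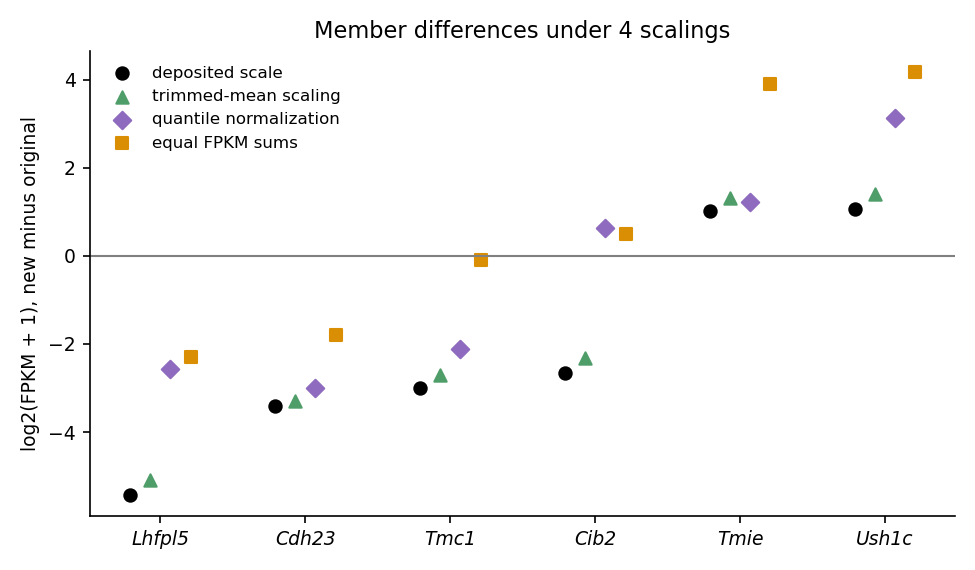
Difference of log2(FPKM + 1), new minus original, for the 6 tested members on the deposited scale (circles), scaled by a trimmed mean (triangles), quantile normalization (diamonds) and equal FPKM sums (squares). Lhfpl5, Cdh23 and Tmc1 lie below 0 in each case, Tmc1 at -0.09 with equal sums, Tmie and Ush1c lie above 0, and Cib2 changes sides.

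Of the relatives of the channel genes, Cib1 alone reached 5 FPKM in either group. The list of other TMC, LHFPL, CIB and PIEZO genes had 16 rows, of which 3 were tested genes. All 3 were higher in new hair cells on the deposited scale, where 45.3% of tested genes were. They were also higher under each other scaling, where 48.9% (trimmed mean), 44.2% (quantile) and 22.3% (equal sums) of tested genes were lower. Cib1, a broadly expressed calcium-binding relative of Cib2, stood at 55.5 FPKM in the original and 317 FPKM in the new cells, 5.71-fold higher, with p = 0.267 in the authors' deposited table. Cib2 was therefore above Cib1 in original hair cells and below it in new ones. Tmc4 and Lhfp, the other 2 tested members of that list, reached 2.29 and 1.28 FPKM in new hair cells. They stood at 0.816 and 0.0491 FPKM in original hair cells. Both thus passed the filter only through the group where they were higher, which fixed their direction on the deposited scale. Among LHFPL genes, Lhfpl1 to Lhfpl4 were all under 1 FPKM in both groups. Cib3, another partner of TMC proteins in mouse hair cells of the vestibular organs, stood at 0.310 FPKM in original and was listed at 0 in new hair cells. Piezo1 and Piezo2, which encode mechanosensitive channels of another family, were both under 0.1 FPKM in both groups.

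Other hair bundle genes also lay on both sides. Of 20 genes of that list, 13 were tested genes, with 7 lower in the new cells and 6 higher, against 54.7% of tested genes lower. With quantile normalization 8 were lower and 5 higher (44.2% of tested genes lower), and with equal sums 6 and 7 (22.3%). Their median difference was -1.46, or 0.23 with equal sums. Grxcr1, needed for the shape of stereocilia, stood at 847 and 5.31 FPKM, 160-fold lower in new hair cells, and Clrn1, the Usher syndrome type 3 gene, at 308 and 2.90 FPKM, 106-fold lower. The authors' deposited table gave p = 0.0129 for Grxcr1 and 0.0251 for Clrn1 (adjusted p 0.526 for both). On the other side, Espn, an actin bundler, stood at 20.1 and 47.9 FPKM and Grxcr2 at 20.2 and 42.0 FPKM. Tomt, needed for transport of TMC1 into the hair bundle, stood at 150 FPKM in the original and 12.3 FPKM in the new cells, 12.2-fold lower. For Tomt the authors' deposited table gave p = 0.441 (adjusted p 0.838). Myo7a, the motor that binds the harmonin and SANS scaffold, stood at 159 and 1.77 FPKM, 89.9-fold lower, while its partner gene Ush1c was higher.

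**Figure D5:**
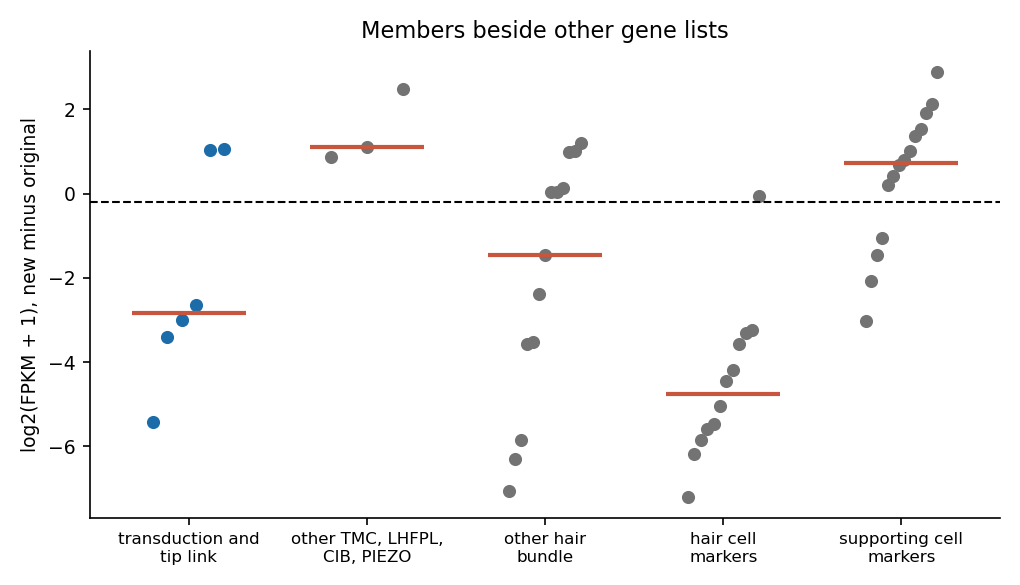
Difference of log2(FPKM + 1), new minus original, for each tested gene (points) of 5 lists, with list medians as red bars and the median of all tested genes dashed. The members, with a median of -2.83, lie between the hair cell markers (-4.75) and the supporting cell markers (0.74), and the members and other bundle genes each spread to both sides of the dashed line.

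The summed levels of cell type markers also differed between the groups. The 9 members summed to 4129 FPKM in the original and 332 FPKM in the new cells, 12.4-fold lower (5.62-fold without Lhfpl5), against 8.87-fold for all rows. The 12 hair cell markers, which were all tested and all lower (Pou4f3 by only 1.04-fold), were 39.9-fold lower in sum, from 42335 to 1062 FPKM. The 15 supporting cell markers were 3.83-fold lower in sum, from 20911 to 5456 FPKM. Most of that sum came from S100a1 (15179 and 3617 FPKM) and Fbxo2 (5421 and 667 FPKM), both lower in the new cells. Without S100a1 it was 5732 and 1839 FPKM, and Fbxo2 then made up most of the original value. The sum thus does not show the direction of most of these markers. Of 14 tested, 10 were higher in the new cells and 4 lower, where 54.7% of tested genes were lower. With quantile normalization or equal sums all 14 were higher. Markers of cells that the sort could also hold were counted beside the 54.7% of tested genes that were lower. That share was 44.2% with quantile normalization and 22.3% with equal sums. In each list 1 gene carried much of the sum, so the sums are also given without it, a choice made after seeing the data. Spiral ganglion neuron genes (4 of 5 tested lower, 1 of 5 with equal sums) summed to 3532 FPKM in the original and 76.0 FPKM in the new cells, and to 318 and 73.3 FPKM without Nefl, a neurofilament gene at 3214 and 2.70 FPKM. Most of what was left was Gata3, at 300 and 66.9 FPKM. The 4 untested genes of this list, Tubb3, Mapt, Nefh and Prph, were under 1 FPKM in both groups. The median difference of the spiral ganglion list was -2.15, or 0.98 with equal sums. Mesenchyme genes (7 of 9 lower, 6 with quantile normalization or equal sums) summed to 3894 and 424 FPKM, and to 2130 and 414 FPKM without Vim, which encodes the intermediate filament vimentin. What was left was mostly Otor in the original (1383 FPKM, and 0.226 in the new cells). In the new cells it was mostly Lum, which was higher there (375 FPKM, and 89.4 in the original). Schwann cell and glia genes (3 of 5 lower, 2 with equal sums) summed to 996 and 20.7 FPKM, of which Cnp, a myelin enzyme gene, made up 983 FPKM in the original. Without Cnp the direction turned, with 13.7 FPKM in the original and 16.7 FPKM in the new cells. Immune cell genes (1 of 3 lower, none with equal sums) summed to 6.67 and 73.4 FPKM, of which Tyrobp, a signalling adaptor gene of myeloid cells, was 3.24 and 71.7 FPKM. Without Tyrobp the direction turned here too, with 3.43 and 1.76 FPKM. Of the spiral ganglion list Prph was listed at 0 in new hair cells, and of the immune list Ptprc was at 0 in both groups and Aif1 in new hair cells. No supporting cell, mesenchyme or glia marker was at 0 in either group. Blood genes (4 rows) were near 0 in both groups. The part of such cells in the members' values was not tested.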

How the data were processed

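RNA of sorted mouse cochlear cells was sequenced from 4 libraries made with a SMART-Seq low-input kit, per the labels' protocols. CASAVA 1.8, Trimmomatic and TopHat were used with build mm10, per the submitters' processing notes. The deposited table held 1 FPKM value per gene and group, a log2 ratio and an unadjusted p-value, per the file headers. The sources used here do not say how the authors combined the 2 libraries of a group, what computed FPKM or which test gave p. The deposited log2 was within 0.01 of the FPKM ratio for all 9 members. From these values were computed log2(FPKM + 1) differences, ranks within columns, and Benjamini-Hochberg adjusted p over 9026 tested genes. The planned fit across libraries (limma) could not be made without values of single libraries. Printed starts are the listed start plus 1, which matched GENCODE for Tmc1 and Tmc2. Adgrv1 is listed as Gpr98, its RefSeq synonym.

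Members and lists were chosen with earlier results of these data known, and genes of like level, transcript length and promoter motifs were added with the data in view. All members were named. Atoh1 was named in advance as the check of the labels. It was lower in new hair cells on the deposited scale, with endogenous and transgenic transcripts not separated, so the labels remain unchecked by it. The rule for other lists was the 2 largest differences in each direction with at least 5 FPKM in 1 group, printed in full for the related-channel and bundle lists. Of the other cell type lists, S100a1, Fbxo2, Nefl, Vim, Cnp and Tyrobp were named for carrying their sums. Gata3 was named for carrying what was left of its sum without Nefl, and Otor and Lum for carrying what was left without Vim. Tmc4, Lhfp, Lhfpl1 to Lhfpl4, Cib3, Piezo1, Piezo2, Tomt, Myo7a, Pou4f3, Tubb3, Mapt, Nefh, Prph, Ptprc and Aif1 were named after their values were seen. Scaling and adjustment were tested on simulated data. Python 3.11.15, numpy 2.4.6, pandas 2.3.3 and matplotlib 3.10.9 were used.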

Additional observations from a re-analysis of the deposited data

How the results depend on the processing

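Lhfpl5, Cdh23 and Tmc1 were lower and Tmie and Ush1c higher in new hair cells under each of the 8 alternatives in which they could be computed. Cdh23 has no value without rows that share a locus, and Tmie none with a filter of 5 FPKM. Cib2 turned to 0.64 with quantile normalization and 0.49 with equal FPKM sums. The median difference of the tested members was -2.94 with a pseudocount of 0.1, -0.11 without a filter (9 members, 5 lower), -3.01 with a filter of 5 FPKM, -2.51 with trimmed-mean scaling (outer 30% of ratios and 5% of levels dropped on each side), -0.74 with quantile normalization, 0.20 with equal sums, -2.95 with the log2 ratio of the authors' deposited table and -2.65 without rows sharing a locus. Less the median of all tested genes, -2.62 in the main setting, it was -0.07 without a filter, -1.90 with 5 FPKM, -1.0 with quantile normalization, -2.33 with equal sums and -2.45 without shared loci. Members at least 2-fold lower numbered 4, where 34.9% of tested genes were. They numbered 2 with equal sums (15.0% of tested genes), 3 with quantile normalization (26.2%) and 3 without rows sharing a locus (34.6%). Without a filter 5 of 9 members were lower, as were 53.8% of all genes above 0 in both groups. The log2 ratio of summed FPKM without the gene of highest FPKM, a setting chosen after seeing the data, turned to 0.29 for glia markers and -0.97 for immune markers. No paired analysis was possible because the columns carry 1 value per group, and leaving out a library was not run for the same reason. Depth is unknown, so values under 1 FPKM cannot be given a floor.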
